A study of Mus musculus with 5 samples.

Results

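DNA methylation of Fbxl10 T/T embryonic stem (ES) cells was set directly against that of Ring1B -/- ES cells in consecutive windows of 1 kb of the mouse build mm9. A window entered when both files held at least 5 CpGs and at least 30 reads in it, counting CpGs outside the sequence CCGG. This left 8723 windows of the 22601 that met the same minimum in any of the 5 files of the series. The level of a window is the share of its summed reads that still showed a cytosine, and it was called high at 50% or more. The WT level was used only to put windows into classes. Fbxl10 T/T cells were labelled C57BL/6J, were grown in serum with leukemia inhibitory factor on inactivated mouse embryonic fibroblasts that were removed before use, and were harvested at passage 17. Ring1B -/- cells, and likewise the Eed -/- and Ezh2 -/- cells that are set beside them in places, were labelled as grown in serum with leukemia inhibitory factor, with no strain, passage or feeder layer given. WT cells shared the strain, culture and passage of Fbxl10 T/T. The labels do not describe the T allele, the way the knockouts were made or how many clones were used. There was 1 library per genotype, so no comparison has a replicate check, and genotype, line, culture and library cannot be told apart.

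As background, FBXL10, also named KDM2B, carries a CXXC zinc finger that binds unmethylated CpG and brings a variant Polycomb repressive complex 1 (PRC1) to CpG islands. RING1B, encoded by Rnf2, is the ubiquitin ligase at the core of both variant and canonical PRC1. EED and EZH2 belong to Polycomb repressive complex 2 (PRC2), which methylates histone H3 at many of the same islands. In ES cells these islands include promoters of developmental regulators, and most CpG islands there are free of DNA methylation. Reduced representation bisulfite sequencing (RRBS) reads CpG-rich fragments that start and end at CCGG, the site of the enzyme MspI.

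The sequences below show 3 stretches that were high in both mutants, 1 that was high only in Fbxl10 T/T, 1 that was high only in Ring1B -/- and 1, the last, that was low in Fbxl10 T/T and just under the threshold in Ring1B -/-. They are the + strand of mm9, read 5′ to 3′ from the sequence contexts in the deposited files, and capitals mark the CpGs outside CCGG that were measured in both files.
chr5:144016710-144016767: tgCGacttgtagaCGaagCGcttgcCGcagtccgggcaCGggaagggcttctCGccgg
chr2:61649848-61649916: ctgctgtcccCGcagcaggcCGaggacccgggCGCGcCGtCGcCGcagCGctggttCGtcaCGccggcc
chr2:28765150-28765189: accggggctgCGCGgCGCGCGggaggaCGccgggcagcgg
chr8:73118570-73118631: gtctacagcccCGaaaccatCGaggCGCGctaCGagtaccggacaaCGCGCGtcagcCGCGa
chr13:32430175-32430244: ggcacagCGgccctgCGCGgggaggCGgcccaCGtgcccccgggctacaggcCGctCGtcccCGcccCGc
chr7:7252354-7252391: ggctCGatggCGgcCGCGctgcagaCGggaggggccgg

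In the chromosome 5 stretch, 251 of 295 reads were methylated in Fbxl10 T/T (85.1%) and 36 of 38 in Ring1B -/- (94.7%). The first chromosome 2 stretch had 237 of 298 reads methylated in Fbxl10 T/T (79.5%) and 35 of 53 in Ring1B -/- (66.0%). The second, which lies near the homeobox gene Barhl1, had 220 of 281 reads methylated in Fbxl10 T/T (78.3%) and 43 of 60 in Ring1B -/- (71.7%). These 3 stretches were mostly methylated in both mutants, but they were picked from windows high in both, which largely fixed this result. Stretches from other windows high in both and under 30% in WT varied more in Ring1B -/-. They ran between 16.7% (2 of 12 reads, on chromosome 11) and 86.4% (19 of 22 reads, on chromosomes 11 and 17) in Ring1B -/-. The chromosome 8 stretch, at the start of Isyna1, had 164 of 195 reads methylated in Fbxl10 T/T (84.1%) and 0 of 39 in Ring1B -/-. The opposite held at the start of Gmds on chromosome 13, with 2 of 507 reads in Fbxl10 T/T (0.394%) and 21 of 34 in Ring1B -/- (61.8%). At the start of Clcn4 on chromosome 7, 11 of 679 reads were methylated in Fbxl10 T/T (1.62%) and 145 of 300 in Ring1B -/- (48.3%).

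The libraries differed in depth and in the share of reads that kept a cytosine outside CpG. Over the 8723 windows the median window held 883 reads at 26 CpGs in Fbxl10 T/T and 64 reads at 15 CpGs in Ring1B -/-, where a read is counted at each CpG it covers. In 179 windows Ring1B -/- stood exactly at the minimum of 30 reads, and in 274 at the minimum of 5 CpGs. At cytosines outside CpG, 0.688% of reads kept a cytosine in Fbxl10 T/T, 2.62% in Ring1B -/- and 1.02% in WT. Split by the next base (A, C and T), WT stood at 1.85%, 0.718% and 0.699%. Fbxl10 T/T stood at 0.966%, 0.659% and 0.485%, and Ring1B -/- at 2.41%, 2.72% and 2.67%. The parts of methylation and of incomplete conversion in these levels were not tested. Intervals below, and the bounds given in parentheses, are 95% Wilson intervals. They cover counting error only, and related reads or adjoining windows make them narrower than they should be. Because 1 read can cover several CpGs, intervals of single windows were based on reads counted once per stretch of 40 bases, which left a median of 295 reads per window in Fbxl10 T/T and 23 in Ring1B -/-.

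Most windows that differed were higher in Fbxl10 T/T than in Ring1B -/-. Pooled over all windows, 11.8% of reads were methylated in Fbxl10 T/T and 4.62% in Ring1B -/-, against 2.78% in WT. The median window stood at 1.71% in Fbxl10 T/T and 2.33% in Ring1B -/-, so most windows were low in both. Fisher's exact test (two-sided, Benjamini-Hochberg over all windows), with a required gap of 20 percentage points or more, called 1824 windows higher in Fbxl10 T/T, which is 20.9% of those tested. It called 40 windows higher in Ring1B -/-, or 0.459%. This test compares the reads of 2 libraries, not the genotypes. With reads counted once per stretch of 40 bases the counts were 1680 and 32. With the summed reads divided by the number of CpGs, which treats each read as covering every CpG of its window, they fell to 21 and 2. At single CpGs with at least 10 reads in both files, 2953 of 19967 were higher in Fbxl10 T/T (14.8%) and 194 were higher in Ring1B -/- (0.972%), with a required gap of 25 points and an adjusted p under the same threshold.

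How much the mutants had in common moved with the WT level of a window. Among the 8242 windows under 10% in WT, the median was 1.57% in Fbxl10 T/T and 2.17% in Ring1B -/-. There 1093 windows were high in Fbxl10 T/T (13.3%) and 18 in Ring1B -/- (0.218%), and 6048 were under 10% in both. Among the 356 windows at 10 to 30% in WT, the median was 60.6% in Fbxl10 T/T and 9.80% in Ring1B -/-, with 250 windows high in Fbxl10 T/T and 20 in Ring1B -/-. Among the 76 windows at 30 to 70% in WT, the medians were 68.6% in Fbxl10 T/T and 46.3% in Ring1B -/-. Among the 46 windows at 70% or more in WT, they were 79.9% in Fbxl10 T/T and 71.7% in Ring1B -/-. Window by window, the median of Fbxl10 T/T minus Ring1B -/- was 44.7 points at 10 to 30% in WT, 19.5 at 30 to 70% and 6.13 at 70% or more, and it was 0.327 under 10%, where most windows were low in both. WT was not measured in 3 windows.

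**Figure D1:**
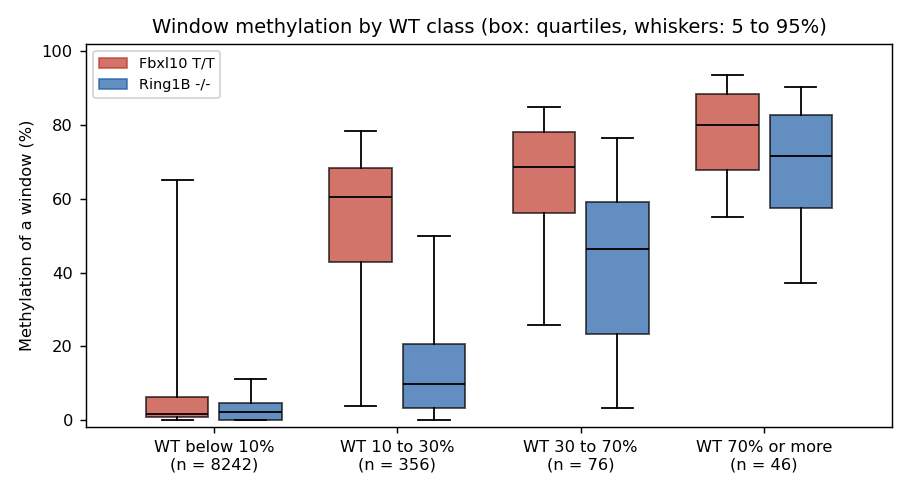
Methylation of windows (vertical axis, %) in Fbxl10 T/T (red, left of each pair) and Ring1B -/- (blue, right), by WT class along the horizontal axis; boxes span the quartiles with the median as a line, and whiskers reach the 5 and 95 percentiles of windows. In the class at 10 to 30% in WT the medians are 60.6% in Fbxl10 T/T and 9.80% in Ring1B -/-.

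A total of 94 windows were high in both mutants, or 1.08% of the 8723, against 1450 high in Fbxl10 T/T (16.6%) and 106 high in Ring1B -/- (1.22%). Of these 94, 62 already stood at 30% or more in WT, with 27 in the class at 30 to 70% and 35 in the class at 70% or more. Another 18 were at 10 to 30% in WT and 13 under 10%, and 1 had no WT value. Of the windows high in Ring1B -/-, 13 of 18 under 10% in WT were high in Fbxl10 T/T as well (72.2%, interval 49.1 to 87.5%), against 13.3% of all windows of that class. That class is not an even match, since the median WT level was 7.42% over the 13 and 1.43% over the class. In finer WT bins it was 0 of 2 at 0 to 2%, 2 of 5 at 2 to 5% and 11 of 11 at 5 to 10%. Of all windows in those bins, 4.74%, 22.9% and 48.3% were high in Fbxl10 T/T. At 10 to 30% in WT, 18 of 20 windows high in Ring1B -/- were high in Fbxl10 T/T as well (90.0%, interval 69.9 to 97.2%). That interval holds the 70.2% of all windows of that class that were high in Fbxl10 T/T. The reverse share was small, at 13 of 1093 windows high in Fbxl10 T/T under 10% in WT (1.19%, against 0.218% of all windows of the class high in Ring1B -/-) and 18 of 250 at 10 to 30% (7.20%, against 5.62%). At 70% or more in WT the reverse share was 79.5%, near the 78.3% of all windows of that class that were high in Ring1B -/-. Counting only windows whose interval lay above 50% in both mutants left 28 of the 94, of which 1 was under 10% in WT and 3 were at 10 to 30%.

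**Figure D2:**
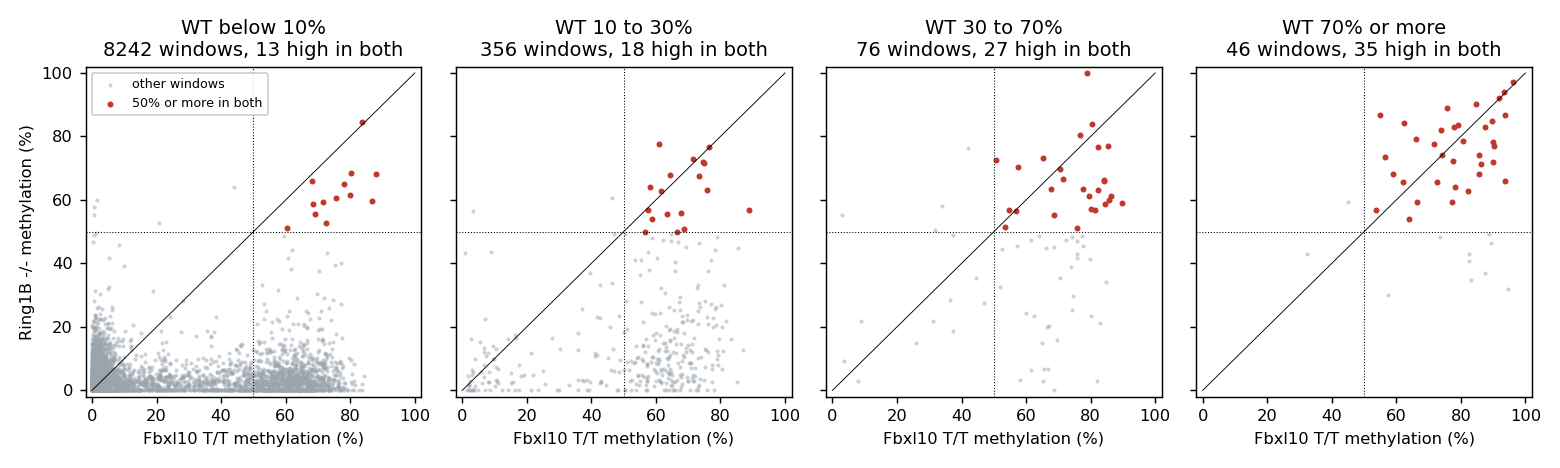
Methylation of each window in Fbxl10 T/T (horizontal axis, %) and Ring1B -/- (vertical axis, %), 1 panel per WT class; red points are at 50% or more in both, dotted lines mark 50% and the solid line marks equal levels. Under 10% in WT a long row of windows lies along the Fbxl10 T/T axis with Ring1B -/- near 0, and 13 of 8242 windows are high in both.

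Of the 94 windows, 10 were called higher in Fbxl10 T/T and 4 higher in Ring1B -/-. Of all windows, 20.9% and 0.459% were called in these directions. The other 80 were not called, but since the threshold holds both levels at 50% or more and the median depth in Ring1B -/- was 44.5 reads, this does not show that the mutants were alike there. Their levels ran between 50.6 and 96.0% in Fbxl10 T/T with a median of 75.8%, and between 50 and 100% in Ring1B -/- with a median of 66.4%. Fbxl10 T/T was the higher of the pair in 62 of the 94. Just inside the threshold lay a chromosome 11 window (chr11:43589001-43590000) with 66.4% in Fbxl10 T/T and 50% in Ring1B -/-. Just outside it lay a window beside Gata2 (chr6:88149001-88150000) with 64.6% in Fbxl10 T/T and 49.4% in Ring1B -/-.

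Windows matched more finely on WT were more often high in Fbxl10 T/T where Ring1B -/- was higher, and the intervals separated at 5 to 10% in WT. There Fbxl10 T/T was high in 242 of 531 windows with Ring1B -/- under 10% (45.6%, interval 41.4 to 49.8%). It was high in 69 of 128 windows with Ring1B -/- at 10 to 30% (53.9%, interval 45.3 to 62.3%) and in 18 of 22 windows with Ring1B -/- at 30% or more (81.8%, interval 61.5 to 92.7%). At 10 to 20% in WT the shares were 61.5% of 156 windows, 75.8% of 99 and 82.9% of 35, in the same order of Ring1B -/- classes. At 20 to 30% in WT they were 60% of 25, 83.3% of 24 and 88.2% of 17. In these bins the intervals of the lowest and highest Ring1B -/- class overlapped. They overlapped at lower WT levels too, with 22.8% of 2044 windows, 21.7% of 184 and 5 of 11 (45.5%) at 2 to 5% in WT, and 4.75% of 5133, 3.85% of 182 and 1 of 7 at 0 to 2%. Matching was not perfect within a bin, since the median WT level at 5 to 10% was 6.38%, 6.97% and 7.63% in the 3 classes, and the part of this difference in the result was not tested.

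**Figure D3:**
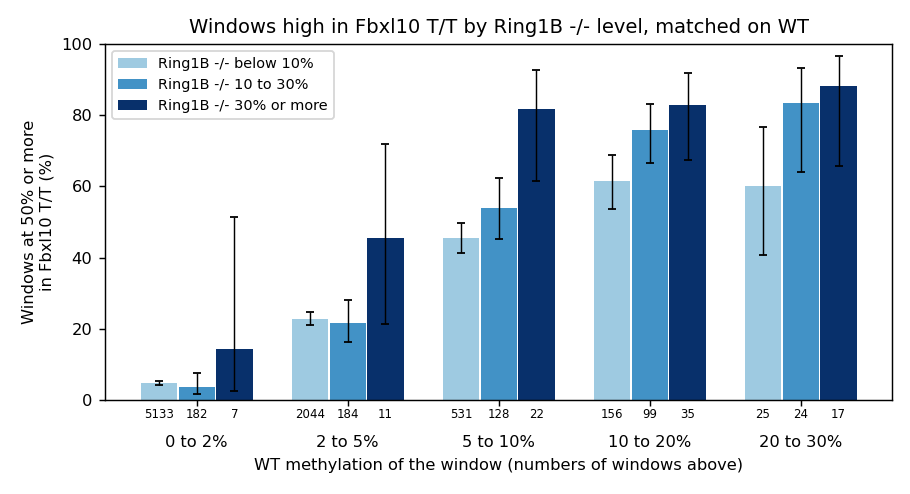
Share of windows at 50% or more in Fbxl10 T/T (vertical axis, %, from 0), by WT level (horizontal axis) and by Ring1B -/- level (shade), with 95% Wilson intervals over windows and the number of windows under each bar. At 5 to 10% in WT the share is 45.6% where Ring1B -/- is under 10% and 81.8% where it is 30% or more.

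Read the other way, Ring1B -/- was higher in windows that were high in Fbxl10 T/T at 5% or more in WT, and not below that. At 10 to 20% in WT, the median in Ring1B -/- was 10.3% over the 200 windows high in Fbxl10 T/T and 5.30% over the 34 windows under 10% in Fbxl10 T/T. At 20 to 30% in WT it was 21.2% over 50 windows and 0.625% over 6. At 5 to 10% in WT it was 5.00% over 329 windows and 3.13% over 231. At 2 to 5% in WT the order turned, with 2.69% over 512 windows and 2.97% over 1422, and likewise at 0 to 2%, with 1.69% over 252 and 1.79% over 4742. Across windows, Spearman's rho between the mutants was 0.25 over all 8723, and within the WT classes, lowest to highest, 0.17, 0.32, 0.36 and 0.22; windows of 1 library share its depth and conversion, so these are descriptions.

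The 13 windows that were high in both mutants and under 10% in WT lay on chromosomes 2, 4, 5, 7, 10, 13 and 18. Their levels ran between 60.5 and 88.0% in Fbxl10 T/T, between 51.1 and 84.6% in Ring1B -/-, and between 2.53 and 9.21% in WT. None overlapped a placed promoter. For this, RefSeq promoters were placed on mm9 by sequence alone, which succeeded at 1 position for 10830 promoters of 9586 genes. An unplaced promoter cannot be counted. No promoter was placed on chromosome 18, so an overlap could not be seen in its 257 windows, which include 2 of the 13. By the same placement, 365 of the 1080 windows high only in Fbxl10 T/T overlapped a promoter (33.8%), as did 3 of the 5 high only in Ring1B -/- and 3914 of the 7144 high in neither (54.8%), all under 10% in WT. None of the 18 windows at 10 to 30% in WT overlapped a placed promoter either, against 52 of the 232 windows high only in Fbxl10 T/T (22.4%). Genes named below by position are the placed or RefSeq-ordered neighbours of a window and are not shown to be affected by it. Whether windows high in both lie near genes of any class more often than other windows was not tested.

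The highest window of this class, chr5:144016001-144017000, stood at 83.5% in Fbxl10 T/T (bounds 79.2 and 87.1%) and 84.6% in Ring1B -/- (bounds 67.2 and 93.6%), against 8.56% in WT. The adjoining window chr5:144015001-144016000 stood at 78.2% in Fbxl10 T/T and 65.0% in Ring1B -/-, against 2.53% in WT. Both lie between the starts of Rnf216, a ubiquitin ligase gene, and Zfp316, a zinc finger gene. The same interval holds Zfp12 and Rbak, which also encode zinc finger proteins, and Spdye4a and Spdye4b. In both windows Eed -/- and Ezh2 -/- were low, at 7.32% and 8.75% in the higher window and at 6.49% and 3.37% in the adjoining one. The stretch printed for chromosome 5 lies in the higher window. In Ring1B -/- most single CpGs of these windows were covered by few reads, and the best covered outside CCGG, with 12 reads each, were at 58.3%, 50% and 58.3%.

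**Figure D4:**
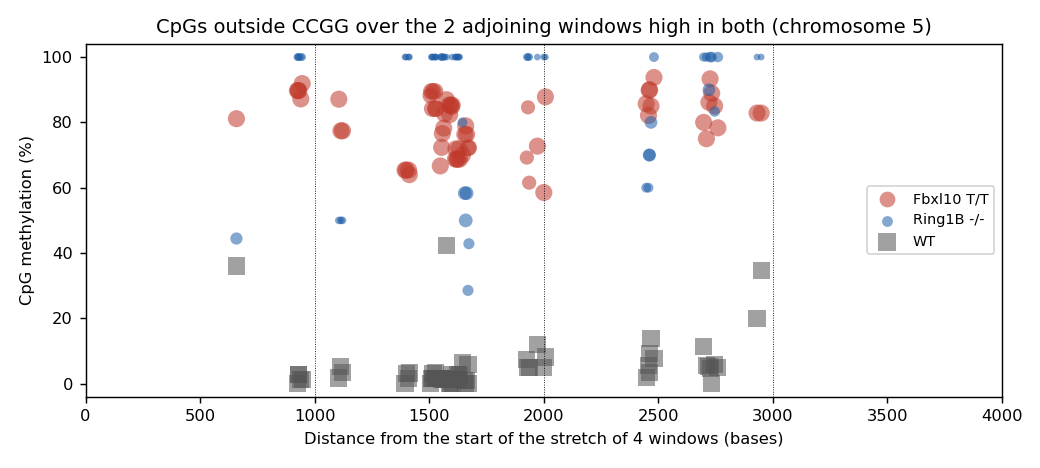
Methylation of single CpGs outside CCGG (vertical axis, %) by distance in bases from the start of 4 consecutive windows on chromosome 5 (horizontal axis; dotted lines are window edges), in Fbxl10 T/T and Ring1B -/- (circles) and WT (squares), with symbol size growing with reads up to 20. The 2 windows in the middle are high in both mutants, at 78.2% and 83.5% in Fbxl10 T/T and 65.0% and 84.6% in Ring1B -/-, while most CpGs in WT lie under 15%.

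The window between Hcn2, a pacemaker channel gene, and Polrmt, the mitochondrial RNA polymerase gene (chr10:79198001-79199000), stood at 88.0% in Fbxl10 T/T and 68.3% in Ring1B -/-, against 8.84% in WT. It was the only 1 of the 11 windows measured there in which Eed -/- was high as well, at 64.1%, while Ezh2 -/- stood at 7.89%. The window chr2:61649001-61650000 stood at 80.0% in Fbxl10 T/T and 61.4% in Ring1B -/-, against 6.29% in WT. RefSeq orders 8 genes between the placed neighbours of this window, among them Tbr1, a T-box transcription factor gene of the cortex. The nearest placed start is 99250 bases away. The stretch of this window is the first printed for chromosome 2. The window chr7:6141001-6142000, between the zinc finger genes Zfp787 and Zfp667, stood at 86.8% in Fbxl10 T/T and 59.6% in Ring1B -/-, and it alone of the 13 was called higher in Fbxl10 T/T (adjusted p = 4.65e-05, Fisher's exact test). Another zinc finger neighbourhood, between Fiz1 and Zfp784 (chr7:4982001-4983000), stood at 80.1% in Fbxl10 T/T and 68.6% in Ring1B -/-, against 5.62% in WT.

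With no start placed on chromosome 18, the nearest to a placed start was the window 3371 bases from that of Dmrta2, a regulator of forebrain development. It was the only 1 of the 13 within 5 kb of a placed start. It stood at 72.3% in Fbxl10 T/T (bounds 68.1 and 76.3%) and 52.8% in Ring1B -/- (bounds 37.0 and 68.0%), against 7.23% in WT. The window between Sh2b2 and the homeobox gene Cux1 (chr5:136750001-136751000) stood at 75.6% in Fbxl10 T/T and 60.5% in Ring1B -/-, against 7.57% in WT. The lowest, chr13:55927001-55928000, stood at 60.5% in Fbxl10 T/T and 51.1% in Ring1B -/-, against 9.21% in WT. Its nearest placed start, that of Pcbd2, is 98272 bases away. RefSeq orders Catsper3 and Pitx1, a homeobox gene of the hindlimb, between the placed neighbours on either side. Eed -/- and Ezh2 -/- stood at 23.5% and 21.9% in this window. With an unweighted mean over CpGs its lower level was 48.0%, just under the threshold. The remaining 4 windows, a pair on chromosome 18 and 1 each on chromosomes 2 and 13, ran between 68.2 and 71.4% in Fbxl10 T/T and between 55.7 and 65.9% in Ring1B -/-. For 12 of the 13 the interval of Ring1B -/- reached below 50%, so a high level there is an estimate from few reads.

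PRC2 mutants were mostly low at the windows that Fbxl10 T/T and Ring1B -/- shared under 10% in WT, and higher at those of higher WT level. Of the 13 windows, 11 were measured in Eed -/-, with a median of 5.62% and 9 under 10%. In Ezh2 -/- 11 were measured, with a median of 5.30% and a highest value of 21.9%. Windows of that class high only in Fbxl10 T/T had medians of 2.61% in Eed -/- and 3.05% in Ezh2 -/-. Windows high in neither had 2.03% and 1.54%. At 10 to 30% in WT, the median was 14.6% in Eed -/- over 14 of the 18 windows, with 4 under 10%, and 18.9% in Ezh2 -/- over 12. There the windows high only in Fbxl10 T/T had 5.88% and 9.53%. The shared windows were picked by their levels in Fbxl10 T/T and Ring1B -/-. Lower levels in Eed -/- and Ezh2 -/- therefore do not show that these windows are particular to those 2 mutants. At 30 to 70% in WT the medians were 39.7% in Eed -/- and 28.1% in Ezh2 -/-, over 19 of the 27 shared windows each. At 70% or more they were 77.5% in Eed -/- and 68.4% in Ezh2 -/-, over 22 and 19 of the 35. The Eed -/- and Ezh2 -/- libraries had depth and non-CpG levels like those of Ring1B -/-, at 2.83% and 2.10% of non-CpG reads.

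**Figure D5:**
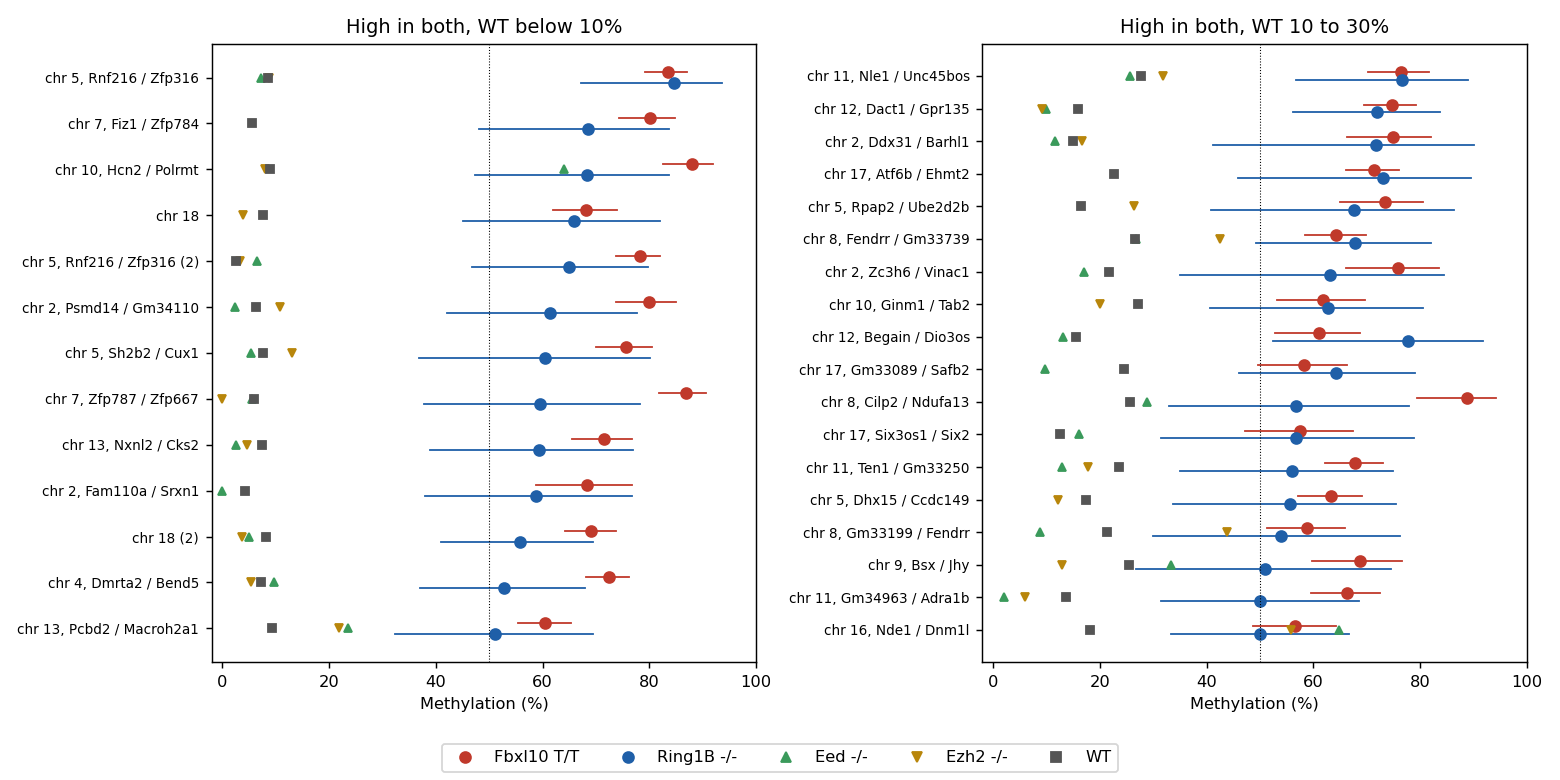
Methylation (horizontal axis, %) of the windows at 50% or more in both mutants, under 10% in WT (left) and at 10 to 30% in WT (right), labelled by the placed genes on either side; circles are Fbxl10 T/T (red, upper) and Ring1B -/- (blue, lower) with 95% intervals on reads counted once per stretch of 40 bases, and triangles and squares are Eed -/-, Ezh2 -/- and WT. On the left Ring1B -/- runs between 51.1 and 84.6%, and Eed -/- is above 50% in 1 window.

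Of the 18 windows at 10 to 30% in WT, 6 lay within 5 kb of a placed start. The window 2015 bases from Barhl1, a homeobox gene of the nervous system, stood at 75% in Fbxl10 T/T (bounds 66.3 and 82.0%) and 71.7% in Ring1B -/- (bounds 41.2 and 90.1%), against 14.9% in WT. The window 8130 bases from Dact1, which encodes a regulator of Wnt signalling, stood at 74.7% in Fbxl10 T/T (bounds 69.6 and 79.2%) and 72.0% in Ring1B -/- (bounds 56.2 and 83.7%), against 15.9% in WT. These 2 windows were not called different between the mutants, with adjusted p = 0.865 and 0.803 in Fisher's exact test. In Eed -/- they stood at 11.5% and 9.85%, and in Ezh2 -/- at 16.7% and 9.09%.

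Near Fendrr, a long noncoding RNA gene that lies beside the forkhead gene Foxf1, 2 windows were high in both. One stood at 64.3% in Fbxl10 T/T and 67.8% in Ring1B -/-, against 26.6% in WT, and the other at 58.8% in Fbxl10 T/T and 54.0% in Ring1B -/-, against 21.4% in WT. In the same order Eed -/- stood at 26.8% and 8.82%, and Ezh2 -/- at 42.5% and 43.9%, on 40 and 41 reads. The window 2594 bases from Six2, a homeobox gene of kidney progenitors, stood at 57.6% in Fbxl10 T/T and 56.8% in Ring1B -/-, against 12.5% in WT. The window chr12:111425001-111426000 stood at 61.0% in Fbxl10 T/T and 77.8% in Ring1B -/-, against 15.5% in WT; RefSeq orders the imprinted genes Dlk1 and Rtl1 near it, and it was not called different (adjusted p = 0.141, Fisher's exact test). The window 1710 bases from Cilp2, a cartilage matrix gene, stood at 88.8% in Fbxl10 T/T and 56.8% in Ring1B -/-, against 25.7% in WT, and was the 1 window of the 18 that was called higher in Fbxl10 T/T (adjusted p = 1.22e-05, Fisher's exact test). That window held 7 CpGs in each mutant: with an unweighted mean over CpGs its lower level was 33.3%, no longer high in both, and with reads counted once per stretch of 40 bases its call was lost (adjusted p = 0.0582, Fisher's exact test). RefSeq orders Gfi1, a zinc finger repressor gene of blood cells, and Evi5 around chr5:108152001-108153000. The levels of that window were 73.5% in Fbxl10 T/T and 67.6% in Ring1B -/-, against 16.5% in WT. The other 10 windows ran between 56.6 and 76.4% in Fbxl10 T/T and between 50 and 76.6% in Ring1B -/-. One of them, chr16:15085001-15086000, held 325 reads in Fbxl10 T/T, 108 in Ring1B -/- and 961 in Eed -/-, whose median window held 66, and it stood at 64.8% in Eed -/-.

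Windows high in both were rarely next to each other. With gaps of up to 20 kb allowed, they formed 4 pairs, on chromosomes 5, 8 (2 pairs) and 18, and no cluster of 3 or more. They held fewer CpGs where WT was higher, with a median in Fbxl10 T/T of 30 under 10% in WT, 15.5 at 10 to 30%, 10 at 30 to 70% and 7 at 70% or more. Of the 94, 74 held 5 to 19 CpGs in Fbxl10 T/T, a class with 2666 windows in all, and 18 held 20 to 39, a class with 3926. Only 2 of the 94 overlapped a placed promoter, although 4378 windows did, 15 lay within 5 kb of a placed start and 77 lay farther away or had no start placed. Under 10% in WT the windows high in both were not sparse in CpGs, and their median of 30 stands against 25 in windows high only in Fbxl10 T/T and 27 in windows high in neither. Of those 13, 3 held 5 to 19 CpGs (0.129% of that class) and 8 held 20 to 39 (0.211%). Of the 2 that overlapped a placed promoter, 1 was at 30 to 70% in WT and 1 at 70% or more.

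The 10 largest differences toward Fbxl10 T/T ran between 79.1 and 83.6 points, on far fewer reads in Ring1B -/- than in Fbxl10 T/T. The window at the start of Isyna1, which encodes inositol phosphate synthase, stood at 83.6% in Fbxl10 T/T (225 of 269 reads) and at 0 of 51 reads in Ring1B -/- (bounds 0 and 16.8%), with an adjusted p = 1.30e-31 in Fisher's exact test. A window 80 bases from Tspan9, a tetraspanin gene, stood at 79.3% in Fbxl10 T/T and at 0 of 39 reads in Ring1B -/-. Over the 10 windows with the largest difference, Fbxl10 T/T ran between 79.3 and 85.2% and Ring1B -/- between 0 and 4.65%. The highest upper bound in Ring1B -/- was 32.4%, at chr8:64028001-64029000, where 0 of 30 reads were methylated. WT was under 10% in 8 of these 10, at 14.2% in 1 and at 51.5% in a window 7985 bases from Zbtb7a, where Ring1B -/- stood at 2.86%.

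The largest differences toward Ring1B -/- were at 10 windows of which 4 overlapped a placed promoter, as did 4378 of all 8723 windows. The chromosome 18 window of these 10 could not be counted, since no promoter was placed on that chromosome. At the start of Gmds, which encodes an enzyme of fucose synthesis, Fbxl10 T/T stood at 0.529% and Ring1B -/- at 57.8% (bounds 38.4 and 75.1%), against 0.927% in WT. At the start of B3glct, a glucosyltransferase gene, Fbxl10 T/T stood at 0.483% and Ring1B -/- at 55.1%, and in the adjoining window at 0.311% and 46.7%. At the start of Rgcc, a cell cycle regulator gene, Fbxl10 T/T stood at 3.50% and Ring1B -/- at 56.5%, against 10.8% in WT. All 3 starts were high in Ring1B -/- and low in Fbxl10 T/T, and Eed -/- stood at 3.67% at Gmds, 26.4% at B3glct and 40% at Rgcc.

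Clcn4, a chloride transporter gene, was the deepest of them, with 441 reads in Ring1B -/- and 488 in Eed -/-, whose median windows held 64 and 66. Ezh2 -/- held 94 reads there and Fbxl10 T/T 1079, against medians of 58 and 883. The source of the extra depth was not tested. The start of Clcn4 stood at 1.20% in Fbxl10 T/T and 49.7% in Ring1B -/- (bounds 40.9 and 58.4%). It stood at 59.0% in Eed -/-, 13.8% in Ezh2 -/- and 1.19% in WT. A window 1246 bases from Ihh, which encodes a hedgehog ligand, stood at 3.13% in Fbxl10 T/T and 55.3% in Ring1B -/-, against 41.9% in WT, so there the level of Ring1B -/- was the closer to WT. These 10 windows were picked among the called ones, so an adjusted p under 0.05 was required of them. The largest in Fisher's exact test was 3.35e-14, at the Ihh window.

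Developmental regulators of the Hox, Pax, Nkx, Lhx, Gata, Fox, Tbx, Sox and Wnt families were more often high in Fbxl10 T/T than windows at large. Most were low in Ring1B -/-, as were most windows at large. Of 116 members in the RefSeq table, 69 had a placed start and 51 had at least 1 window within 2 kb of it, giving 76 windows. Their median was 55.6% in Fbxl10 T/T and 3.63% in Ring1B -/-, against 2.88% in WT. Of the 76 windows, 52 were called higher in Fbxl10 T/T (68.4%, against 20.9% of all windows) and 0 higher in Ring1B -/- (against 0.459%). With summed reads divided by the number of CpGs, 1 of the 76 was called higher in Fbxl10 T/T, and with reads counted once per stretch of 40 bases, 51. A total of 42 were high in Fbxl10 T/T (55.3%, against 16.6% of all windows), and 67 were under 10% in Ring1B -/-. Low levels in Ring1B -/- were common at large, with a median of 2.33% and an upper quartile of 5.03% over all 8723 windows. None was high in Ring1B -/- or in both, which is near the 1.22% and 1.08% of all windows.

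At the start of Nkx6-2, a homeobox gene of the neural tube, the level was 76.5% in Fbxl10 T/T and 3.21% in Ring1B -/-, against 2.93% in WT. At Foxd3, a forkhead gene of the neural crest and of pluripotent cells, it was 76.3% in Fbxl10 T/T and 2.80% in Ring1B -/-. At Wnt5b, a signalling ligand, it was 71.1% in Fbxl10 T/T and 1.96% in Ring1B -/-, and at Hoxd11, a homeobox gene of the posterior axis, 63.1% in Fbxl10 T/T and 2.86% in Ring1B -/-. Not all family members were high in Fbxl10 T/T: Wnt11 stood at 3.06% in Fbxl10 T/T and 1.25% in Ring1B -/-, and Foxo3 at 1.57% in Fbxl10 T/T and 2.04% in Ring1B -/-. The window beside Gata2, a regulator of blood stem cells, came closest to being high in both, as given above, with 15.1% in WT, while the window at its start stood at 59.4% in Fbxl10 T/T and 0 of 51 reads in Ring1B -/-. Next highest in Ring1B -/- was a window 1605 bases from Pax2, a kidney and eye regulator, with 65.6% in Fbxl10 T/T and 20.4% in Ring1B -/-.

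The smaller lists held few windows, and their counts stand against 20.9% of all windows called higher in Fbxl10 T/T. Both germline genes with a window, Ddx4 and Dazl, which encode RNA-binding proteins of germ cells, were called higher in Fbxl10 T/T. Ddx4 stood at 73.0% in Fbxl10 T/T and 25% in Ring1B -/-, against 17.8% in WT, and Dazl at 78.3% in Fbxl10 T/T and 25.5% in Ring1B -/-, against 14.2% in WT. Of all windows at 10 to 30% in WT, 71.1% were called higher in Fbxl10 T/T, so these calls are common at that WT level. Among imprinted loci 3 of 6 windows were called higher in Fbxl10 T/T, at Plagl1 and in both windows of Grb10. Plagl1 stood at 79.7% in Fbxl10 T/T and 41.5% in Ring1B -/-, against 37.7% in WT. The Grb10 windows stood at 75.4% and 69.5% in Fbxl10 T/T, with 4.76% and 0 of 88 reads in Ring1B -/-. In WT they stood at 2.52% and 2.97%. Of 5 windows at genes of DNA methylation enzymes, 1 was called, a share near that of all windows, 841 bases from a start of Dnmt3a, with 58.3% in Fbxl10 T/T and 5.71% in Ring1B -/-.

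Among PRC1 genes 4 of 20 windows were called higher in Fbxl10 T/T, a share near the 20.9% of all windows. The window 625 bases from Ring1, the paralog of Rnf2, was the only 1 that was high in both, at 85.8% in Fbxl10 T/T and 60.0% in Ring1B -/-, and it already stood at 66.8% in WT. A window 1472 bases from a start of Bcor, a partner of FBXL10 in the variant complex, stood at 67.2% in Fbxl10 T/T and at 0 of 33 reads in Ring1B -/-. Kdm2b itself had 1 called window, 108 bases from an alternative start, at 34.8% in Fbxl10 T/T and 0 of 30 reads in Ring1B -/-, and its other start stood at 2.72% in Fbxl10 T/T and 2.00% in Ring1B -/-. Rnf2 stood at 2.01% in Fbxl10 T/T and 8.43% in Ring1B -/-, a difference under 20 points. Methylation cannot check the genotype labels, and these windows are given as values.

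Cell type markers could be read at few windows, and methylation does not give their expression. Of ES cell markers, Sox2 stood at 48.8% in Fbxl10 T/T and 7.14% in Ring1B -/-, and the start of Klf4 stood at 1.5% in Fbxl10 T/T and 4.65% in Ring1B -/-. Of fibroblast markers, Twist2 stood at 61.6% in Fbxl10 T/T and 38.4% in Ring1B -/-, against 3.31% in WT, and was called higher in Fbxl10 T/T (adjusted p = 6.03e-04, Fisher's exact test). It was the only window of these 2 marker lists at 30% or more in Ring1B -/-. The part of any remaining feeder cells in the levels was not tested.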

How the data were processed

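RRBS of mouse ES cells was taken from the authors' tables, 1 per genotype. Per the submitters' processing notes, reads were aligned with BSMAP 2.74 to mm9; read trimming and removal of duplicates are not given in the sources used here. Per the file headers, the deposited counts are whole numbers of reads per cytosine (showing C, and showing C or T), and the deposited expected counts are C or T reads adjusted for variants on the opposite strand. The deposited fraction is C reads over these expected counts. Levels here used raw counts; the expected counts served as an alternative.

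CpGs outside CCGG on the + strand were summed in 1-kb windows (at least 5 CpGs and 30 reads in both files). Windows were called by Fisher's exact test with Benjamini-Hochberg adjustment at 0.05 and a difference of 20 points (scipy 1.17.1, pandas 2.3.3), single CpGs at 10 reads and 25 points. High meant at least 50%, and WT entered no test. RefSeq promoters (GRCm38.p6, 250 bases before to 50 after a start) were placed on mm9 by sequence: a shared word of 14 bases, at least 30 known bases and 98% identity. No promoter was placed on chromosome 18, and no coordinates were converted. Windows named were all those high in both at under 10% in WT, the 15 with the highest lower level at 10 to 30% (the others were added to the plot and the ranges), the 10 with the largest difference in each direction, and members of the gene lists; the list members given with values were picked as examples. Members and lists were chosen with earlier results of these data known. The test was run on simulated data first. Median depth per listed CpG outside CCGG was 25 reads in Fbxl10 T/T, 2 in Ring1B -/- and 37 in WT. The alternatives were other minimums, thresholds and windows, CpGs inside CCGG kept, the expected counts, thinning, and variants left out.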

Additional observations from a re-analysis of the deposited data

Results flagged for a closer look

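At non-CpG cytosines, 0.688% of reads kept a cytosine in Fbxl10 T/T and 2.62% in Ring1B -/-, against 1.02% in WT, so Ring1B -/- stood above WT and Fbxl10 T/T did not. In CpGs inside CCGG, which the window levels leave out, 30.7% of reads were methylated in Fbxl10 T/T and 36.6% in Ring1B -/- over the windows compared, against 23.3% in WT. Inside these sites Ring1B -/- was thus the higher of the mutants, whereas outside them the pooled level was 11.8% in Fbxl10 T/T and 4.62% in Ring1B -/-. The Eed -/- and Ezh2 -/- libraries stood at 34.7% and 33.3% inside these sites. Whether the site itself moves these levels was not tested.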

How the results depend on the processing

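No paired analysis was possible because each genotype had 1 library. Counts are given as windows higher in Fbxl10 T/T, higher in Ring1B -/- and high in both, and they moved with the minimum depth because fewer or more windows were tested. At 20 reads, 81 windows were higher in Ring1B -/- and 191 were high in both, with 30 at 10 to 30% in WT. At 50 reads the counts were 1123, 20 and 37, with 7 high in both under 10% in WT and 9 at 10 to 30%. At 100 reads they were 355, 3 and 11, with 2 and 2 in those WT classes and 18 windows of the developmental families higher in Fbxl10 T/T. A minimum of 3 CpGs gave 152 windows high in both, and 10 CpGs gave 28, with 8 at 10 to 30% in WT. Keeping CpGs inside CCGG gave 2892, 303 and 847, with 1 under 10% in WT and 76 at 10 to 30%, and 603 single CpGs higher in Ring1B -/-. An unweighted mean over CpGs gave 80 windows higher in Ring1B -/-, and differences of 10 and 30 points gave 222 and 16. Window edges shifted by 500 bases left 8 windows high in both under 10% in WT. With high set at 30%, 171 were high in both, 25 under 10% in WT and 49 at 10 to 30%; at 70% these were 31, 1 and 4. Single CpGs at 5 reads gave 7028 higher in Fbxl10 T/T and 436 higher in Ring1B -/-, and at 20 reads 97 and 28.

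The alternatives that follow were chosen after seeing the data. Dividing summed reads by the number of CpGs gave 21 and 2 called windows, and 1 of the developmental families. Counting reads once per stretch of 40 bases gave 1680 and 32, with 51 in the families. Removing each file's non-CpG level gave 1851, 33 and 89, with 12 and 15 high in both in the lower WT classes. Among windows under 30% in WT, 81.6% of those high in Ring1B -/- were high in both, and this share ran between 68.8 and 83.3% over the alternatives. A reversal was defined only for the 20 windows with the largest differences, and none of these reversed. Of 564 values of the lower level at the 28 named windows high in both, 559 stayed at 50% or more. Many alternatives left the level of a window unchanged, and windows under a stricter minimum dropped out. Both this count and the next were therefore partly fixed in advance. At the 20 windows with the largest differences, 391 of 409 values kept their call and 18 lost it, all under the division by the number of CpGs. Named windows were not recomputed under shifted edges, and Ring1B -/- depth limits all of them.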
